A study of Rattus norvegicus with 4 samples.

Results

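The 4 genes described here, Pck1, Gcgr, Gys2 and Irs1, carry the answer of the liver to glucagon and insulin. They are 4 of the 958 genes named on a rat cDNA microarray, and were read by 5 of its 1936 probes. Chosen was every probe whose platform annotation gives exactly 1 gene symbol, that symbol being one of the 4. Pck1, Gcgr and Irs1 had 1 probe each and Gys2 had 2. Livers of male Sprague-Dawley rats were compared at 1 h after an operation under ether. In the ligated group the common bile duct was tied between liver and gut, which stops bile flow. In the sham group the duct was exposed and not tied. All animals were unmodified, had free access to chow and water after the operation, and are described in the labels by weight and not by age. Rats were killed in groups of 3, and total RNA from the right lateral lobe was mixed, so each RNA sample is a pool. Each of the 4 arrays set ligated against sham RNA. Arrays 1 and 3 had the ligated RNA labelled with Cy5 and the sham RNA with Cy3, and arrays 2 and 4 had the dyes exchanged. The comparison asks how early liver transcripts respond to blocked bile flow.

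Glucagon, the hormone of fasting, binds the receptor encoded by Gcgr on hepatocytes and raises cyclic AMP. Cyclic AMP activates protein kinase A, which stops glycogen synthesis and turns on genes of glucose production, Pck1 among them. Insulin, the hormone of the fed state, acts through its receptor and the docking protein Irs1 on phosphoinositide 3-kinase and Akt, favours glycogen synthesis by the liver glycogen synthase Gys2 and represses Pck1. Pck1 encodes the cytosolic phosphoenolpyruvate carboxykinase, which commits oxaloacetate to glucose, and its messenger RNA is short-lived and known to change quickly with both hormones.

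The sequences just upstream of Pck1 and Gys2 are shown because Pck1 is the textbook example of a promoter switched by cyclic AMP and Gys2 is the gene measured by 2 probes. Both are RefSeq sequences of the GRCr8 assembly, 250 bases ending at the base before the annotated start and read 5′ to 3′ along the gene: chr3:182348322-182348571 on the plus strand for Pck1 and chr4:177137237-177137486 on the minus strand for Gys2. Capitals mark ACGTCA, the core of the cyclic AMP response element, and AGGTCA, the half-site of many nuclear receptors.
Pck1: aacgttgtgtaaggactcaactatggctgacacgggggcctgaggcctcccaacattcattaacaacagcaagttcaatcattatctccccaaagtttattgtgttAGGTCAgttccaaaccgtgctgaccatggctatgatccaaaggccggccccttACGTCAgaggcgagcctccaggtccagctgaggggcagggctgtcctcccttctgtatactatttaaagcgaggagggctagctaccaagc
Gys2: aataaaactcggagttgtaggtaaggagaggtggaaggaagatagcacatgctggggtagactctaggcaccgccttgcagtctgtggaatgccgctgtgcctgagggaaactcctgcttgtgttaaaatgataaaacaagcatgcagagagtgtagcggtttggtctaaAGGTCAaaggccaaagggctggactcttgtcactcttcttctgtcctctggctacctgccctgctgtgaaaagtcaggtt

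The ACGTCA of Pck1 lies at -91 to -86 from the start and its AGGTCA at -144 to -139, and the AGGTCA of Gys2 lies at -80 to -75. Searched on both strands, ACGTCA occurred in 6.95% of 33461 RefSeq windows of the same length and AGGTCA in 14.1%. The forkhead site TGTTTAC, found in 3.21% of windows, was in none of the 4 genes' windows, and the marked matches did not overlap. Of the 2 windows listed for Gcgr and the 1 for Irs1, none held any of these letters. The Irs1 window and the first Gcgr window were rich in G and C, at 70.8% and 70%, against 52% for Pck1, 49.6% for Gys2 and a median of 51.2% over all windows. These matches describe the letters of the assembly, and no binding was measured.

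The deposited value of a probe on an array is 1 log ratio of the 2 channels, whose base is not given in the sources used here. Values were read as channel 2 over channel 1, ligated over sham, because the labels name the channels in that order. The labels do not say which channel was divided by which, and if the ratio was the inverse, all signs of the operation estimates turn. Values followed the dye, with array medians of -0.88, 0.75, -0.73 and 0.87, so each array was centred on its median and the model held a dye effect beside the operation. Log ratios hold no transcript level, so the tissue label cannot be checked against markers, and levels of the 4 genes cannot be ranked. As RNA came from undissociated tissue, fewer cells of a type and less RNA per cell cannot be told apart.

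At 1 h after ligation none of the 5 probes passed the test, against 5.73% of all probes, 0.93% higher and 4.8% lower (limma, Benjamini-Hochberg adjusted p under 0.05 over 1936 probes). The operation estimates lay between -0.15 and 0.056 on the deposited log scale, slightly above 0 for Pck1 and Irs1 and below 0 for Gcgr and both Gys2 probes. The smallest estimate that passed anywhere on the array was 0.26 in size. For scale, the nuclear receptor gene Nr0b2, the strongest named change of these arrays, had 1.08 and 1.18 at its 2 probes (limma adjusted p = 3.82e-18 and 8.11e-20).

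**Figure D1:**
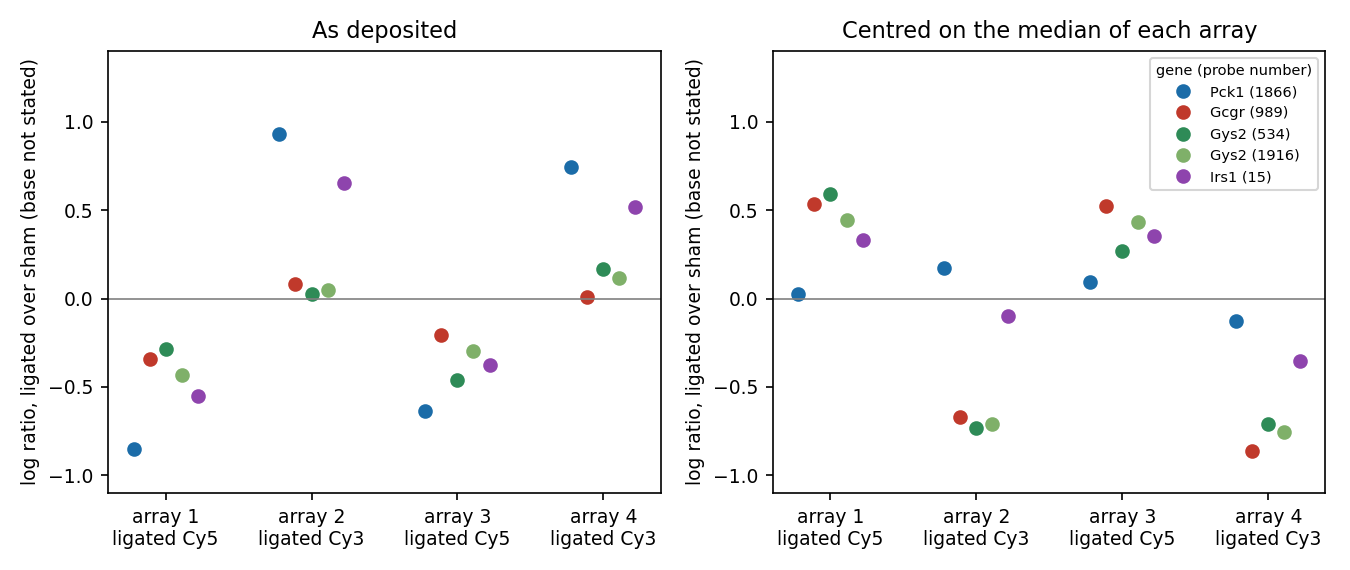
Log ratio of ligated over sham (vertical axis, base not stated) of the 5 probes on each of the 4 arrays (horizontal axis), as deposited on the left and centred on each array's median on the right; each point is 1 probe on 1 array. As deposited, all 5 probes are below 0 where ligated RNA carried Cy5 and above 0 where it carried Cy3, and after centring Gcgr and Gys2 part by dye the opposite way while Pck1 stays between -0.13 and 0.18.

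Pck1, the enzyme gene induced by glucagon and repressed by insulin, was read by probe 1866. Its deposited log ratios were -0.85, 0.93, -0.64 and 0.74 on arrays 1 to 4. Centred, they were 0.026, 0.18, 0.092 and -0.13. These centred values were above 0 on 3 of 4 arrays, and the 2 arrays with ligated RNA in Cy3 differed more from each other, by 0.302, than the 2 in Cy5, by 0.0656. The operation estimate was 0.042 ± 0.084 (SE, n = 4 arrays; limma adjusted p = 0.991), with a 95% interval of the log ratio from -0.13 to 0.21. If the base is 2, that interval runs from 0.916-fold to 1.16-fold. Its sign depended on array 2, without which the estimate was -0.034.

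Gcgr, the glucagon receptor, was read by probe 989. Its deposited log ratios were -0.34, 0.083, -0.21 and 0.011, and centred they were 0.53, -0.67, 0.52 and -0.86. Arrays 1 and 3 nearly coincided, and arrays 2 and 4 lay far below them, so the values parted by dye. The estimate was -0.12 ± 0.084 (SE, n = 4; limma adjusted p = 0.656), with a 95% interval from -0.29 to 0.048.

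Gys2, which encodes the glycogen synthase isoform of liver, had 2 probes far apart in the order of the probe numbers. Probe 534 had deposited log ratios of -0.29, 0.023, -0.46 and 0.16, and centred values of 0.59, -0.73, 0.27 and -0.71. Probe 1916 had deposited log ratios of -0.43, 0.045, -0.30 and 0.12, and centred values of 0.44, -0.71, 0.43 and -0.76. Both probes were high on arrays 1 and 3 and low on arrays 2 and 4, and probe 534 also differed by 0.324 between arrays 1 and 3. Their operation estimates were -0.14 ± 0.084 and -0.15 ± 0.083 (SE, n = 4; limma adjusted p = 0.492 and 0.465), with 95% intervals from -0.31 to 0.023 and from -0.31 to 0.019.

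The centred values of the 2 Gys2 probes differed by 0.15, -0.022, -0.16 and 0.048 on arrays 1 to 4 (probe 534 minus probe 1916). The differences on arrays 1 and 3 were about as large as the operation estimates and opposite in sign. They nearly cancel in the average difference of 0.0028 ± 0.13 (SD over 4 arrays). The distance between the 2 probes over the 4 arrays was 0.227, and 15 of the 1934 other probes lay nearer to probe 534. Among the 261 genes with exactly 2 probes, the median distance between a gene's probes was 0.758, and 96.2% of the pairs lay farther apart than those of Gys2. Averaged, Gys2 had -0.15 ± 0.073 (SE, n = 4; limma adjusted p = 0.363 over 958 genes). The distance mainly reflects each probe's own response to the dyes, which was alike for these 2 (0.57 and 0.58, Cy5 over Cy3, centred). With the block correction, a smooth curve of the dye effect subtracted in each block of the array, the 2 operation estimates lay farther apart, at -0.14 and -0.071, and probe 1916 was above 0 on array 4.

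Irs1, the docking protein that links the insulin receptor to phosphoinositide 3-kinase, was read by probe 15. Its deposited log ratios were -0.55, 0.65, -0.38 and 0.52, and centred they were 0.33, -0.099, 0.35 and -0.36. Arrays 1 and 3 were above 0 and arrays 2 and 4 below, and the latter differed by 0.257. The estimate was 0.056 ± 0.084 (SE, n = 4; limma adjusted p = 0.971), with a 95% interval from -0.11 to 0.22. Without array 2 it was -0.0077.

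**Figure D2:**
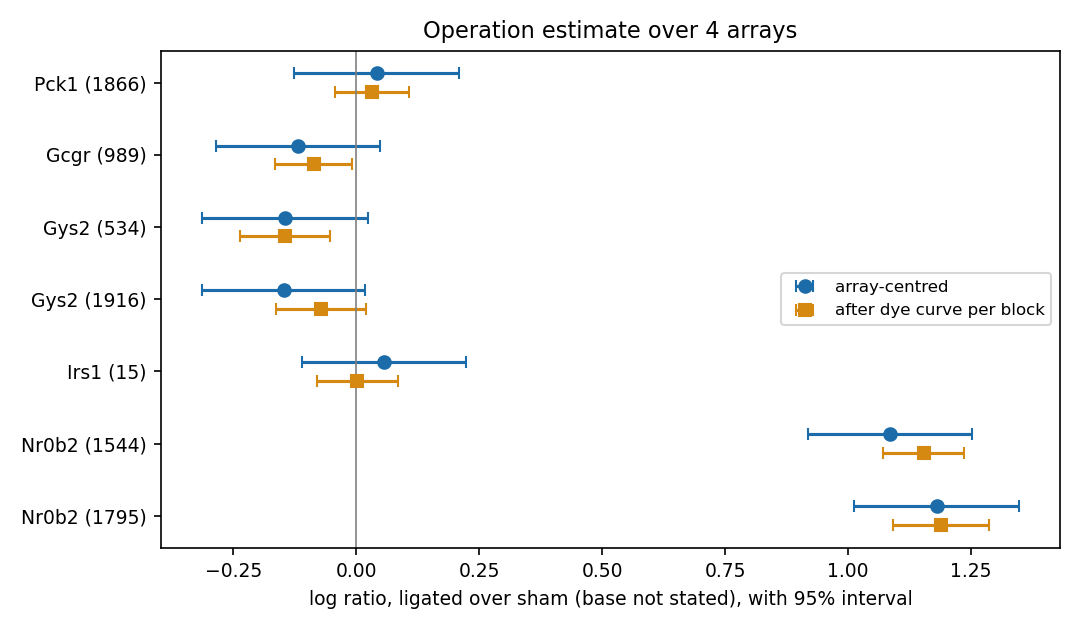
Operation estimate (horizontal axis, log ratio of ligated over sham, base not stated) with its 95% interval over 4 arrays for the 5 probes and, for scale, the 2 probes of Nr0b2; circles are array-centred values and squares are values after the block correction (dye curve per block). The array-centred intervals of the 5 probes all include 0 and reach no farther than 0.31 in size, while Nr0b2 lies at 1.08 and 1.18.

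These intervals mostly reflect a spread common to the whole array, because the fit has 2 residual degrees of freedom and limma's prior adds 76.2. From the 4 values of a probe alone, the SE ranged from 0.0124 for Gys2 probe 1916 to 0.0812 for Gys2 probe 534. With its own SE, probe 1916 had an unadjusted p of 0.00702, but an adjusted p of 0.714 over all probes in the test without limma's moderation. Whether the arrays share RNA extracts is not said in the labels, and the p-values reflect differences among arrays of pooled RNA, not among rats.

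Probes with a response to the dyes like that of Gcgr and Gys2 also had median operation estimates below 0. The part of the dyes in the estimates of Gcgr and Gys2 was not tested. The dye contrast (Cy5 over Cy3, centred) was 0.65 for Gcgr, 0.57 and 0.58 for Gys2 probes 534 and 1916, 0.28 for Irs1 and 0.018 for Pck1. With all probes ordered by dye contrast and cut into 10 bins, Gcgr and both Gys2 probes stood in bin 8, whose 194 probes had a median operation estimate of -0.059. Among the 100 probes nearest in dye contrast, the median operation estimate was -0.080 around Gcgr, -0.048 around Gys2 probe 534, -0.049 around Gys2 probe 1916, -0.0037 around Irs1 and 0.026 around Pck1. Of these 100 neighbours, 35 lay below Gcgr, 23 and 22 below the 2 Gys2 probes, 58 below Pck1 and 76 below Irs1. Each of the 5 probes thus had dye neighbours on both sides of it.

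**Figure D3:**
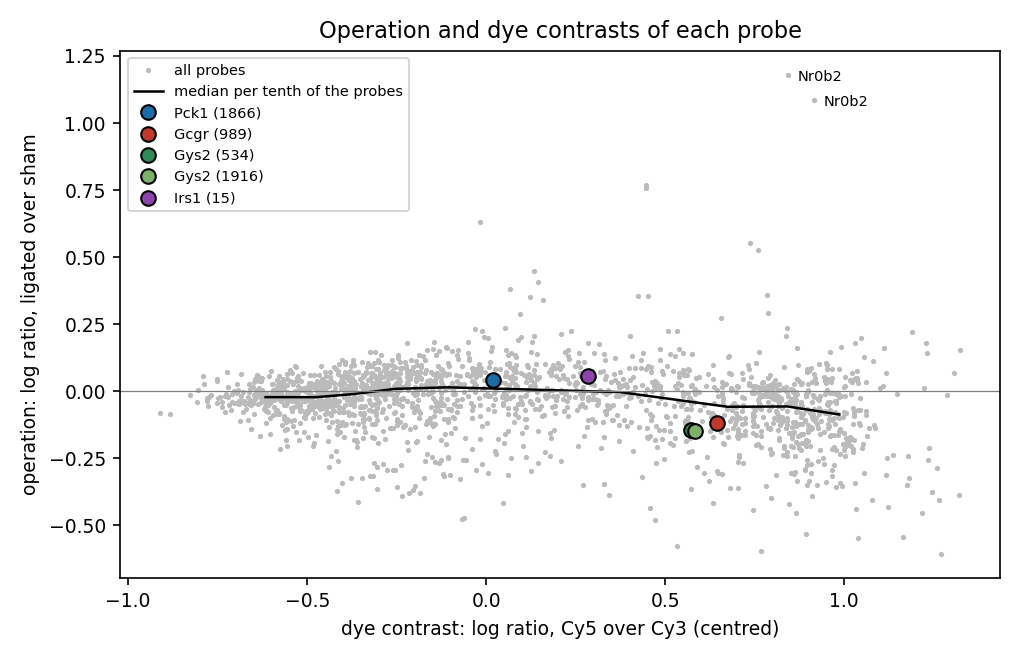
Operation estimate (vertical axis, ligated over sham) against dye contrast (horizontal axis, Cy5 over Cy3) of each of the 1936 probes, both as centred log ratios of unstated base; the line joins the medians of 10 bins of probes. Gcgr and Gys2 lie at dye contrasts of 0.57 to 0.65 and slightly below the line, Pck1 and Irs1 slightly above it, and the Nr0b2 probes far above it.

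Estimates also differed between stretches of the array, which were taken as 16 blocks of equal size in the order of the probe numbers. Blocks 3 and 4, where most of the lower calls of these arrays fall, held none of the 5 probes. Irs1 lay in block 1, whose median estimate was 0.066, Gys2 probe 534 in block 5 (0.010), Gcgr in block 9 (-0.021), and Pck1 and Gys2 probe 1916 in block 16 (-0.015). A smooth curve of the dye effect was therefore also fitted in every block of every array and subtracted, which is called the block correction below. Then Gys2 probe 534 kept -0.14 ± 0.042 (SE; limma adjusted p = 0.0675; unadjusted 0.00554) and Gcgr had -0.087 ± 0.035 (adjusted p = 0.185; unadjusted 0.0319). Gys2 probe 1916 had -0.071 ± 0.041, Pck1 0.032 ± 0.034 and Irs1 0.0024 ± 0.037 (adjusted p = 0.379, 0.698 and 0.978). None of the 5 passed, against 7.02% of all probes. After the correction, Gcgr was at -0.13, -0.082, -0.046 and -0.094 on arrays 1 to 4, and Gys2 probe 534 was at -0.079, -0.23, -0.21 and -0.056, both below 0 on every array. Pck1 was above 0 on every array, at 0.030, 0.015, 0.036 and 0.047. The curve is fitted on the probe's own mean over the same arrays. This makes the averages of the 2 dye orientations nearly equal by construction. A shared sign on all 4 arrays is thus partly built in by the correction, and was common after it, in 36.1% of all probes. As deposited, 0 of the 5 probes kept one sign over the arrays, against 6.92% of all probes, and 5 of the 5 had opposite signs in the 2 dye orientations, against 78.8%. Centred, 0 of the 5 kept one sign, against 1.91%.

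In the other possible reading, with values taken as Cy5 over Cy3 and arrays 2 and 4 turned, the dye contrast takes the place of the operation. Gcgr, both Gys2 probes and Irs1 then passed as higher, at 0.65, 0.57, 0.58 and 0.28 (limma adjusted p = 1.16e-10, 5.44e-09, 2.38e-09 and 0.00166), and Pck1 had 0.018 (adjusted p = 0.850). In that reading 1599 of all 1936 probes passed, 816 higher and 783 lower, and the values given here as operation estimates become the dye effect.

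The genes whose 4 centred values were nearest to those of each gene, probes averaged, were sought among 957 other genes. Nearest to Gys2 were Adh1c, Cltc and Ppp1ca, at distances of 0.0668, 0.0813 and 0.150, against a median distance of 1.21 over all genes. Nearest to Gcgr were Hao2, Ppp1ca and Arf4 (0.0543, 0.115 and 0.116, median 1.30). Gys2 itself lay at 0.221 from Gcgr. Nearest to Irs1 were Odc1, Il1rap and Slc29a1 (0.0446, 0.0707 and 0.133, median 1.06), and nearest to Pck1 were Pawr, Abl1 and Nfkb1 (0.0923, 0.0960 and 0.100, median 0.842). None of these neighbours passed the test on genes. Likeness here is over 4 arrays that share the dye effect, so it is mainly a likeness of dye contrast.

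The surrounding pathways were followed in 7 lists of hormone genes, of which 39 genes were measured, the 4 genes included. With probes averaged, 2 of the 39 rose and 1 fell, against 4.18% of all 958 genes called (1.25% higher and 2.92% lower). Their median estimate was -0.049, beside -0.024 over all genes. With the block correction described above, 1 rose and 2 fell, against 5.32% of all genes called in either direction. The median was then -0.015 beside -0.00096 over all genes.

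On the glucagon side, 6 of 35 listed signalling genes were measured and none passed, 0 of 6. All 6 estimates, that of Gcgr included, were below 0, with a median of -0.12 that rests in part on Gcgr. They ran from -0.15 ± 0.078 for Gnas, the stimulatory G protein subunit that couples the receptor to adenylyl cyclase, to -0.0089 ± 0.075 for Prkar2a, a regulatory subunit of protein kinase A (SE; limma adjusted p = 0.363 and 0.986). Gcgr lay between them. Of all probes, 56.1% lay below Prkar2a, so most of the array was below 0. With the block correction the median of the 6 was -0.063, and again none passed. Cebpd, a transcription factor gene in block 3 named after its value was seen, turned from -0.11 to 0.17 ± 0.055 there (limma adjusted p = 0.121), so that 5 of the 6 were below 0.

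On the insulin side, 13 of 36 listed signalling genes were measured, and with probes averaged none passed. Their median was 0.014, and 6 of the 13 were below 0, against at least 56.1% of all probes. The estimate of Trib3, an inhibitor of Akt named after its value was seen, was the highest at 0.084 ± 0.080 (SE; limma adjusted p = 0.790). Of their 22 probes 1 passed, as lower, against 4.8% of all probes: probe 369 of Prkcz, an atypical protein kinase C downstream of phosphoinositide 3-kinase. Its centred values were -0.25, -0.35, -0.90 and 0.020, lowest on array 3 and at about 0 on array 4. It fell by 0.37 ± 0.089 (limma adjusted p = 0.00361), and by 0.24 ± 0.061 with the block correction (adjusted p = 0.0366), a correction that bears on it because it lies in block 4. Without array 3 the call ended (-0.21 ± 0.144, adjusted p = 0.999), and without array 2 it ended narrowly (-0.28 ± 0.086). It also ended when each block was centred on its own median (-0.26, adjusted p = 0.0928). The other Prkcz probes, 82 and 895, had 0.022 and -0.014.

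In gluconeogenesis, 2 of 14 listed genes were measured, Pck1 and Got1. Got1, the cytosolic aspartate aminotransferase that supplies oxaloacetate to the enzyme made by Pck1, rose by 0.45 ± 0.087 at its probe (SE, n = 4; limma adjusted p = 0.000215). Its centred values were above 0 on 4 of 4 arrays, at 0.83, 0.15, 0.33 and 0.48, where 1.91% of all probes kept one sign. Its deposited values, -0.046, 0.90, -0.40 and 1.35, were above 0 on 2 of 4 arrays and parted by dye. Its call ended without array 1 (0.32 ± 0.144, adjusted p = 0.476), and in the fit on genes with the block correction its adjusted p was 0.0620. It also ended when each block was centred on its own median (0.36, adjusted p = 0.0731). The Pck1 interval given above, which ends at 0.21, lies below the Got1 interval from 0.27 to 0.62; the difference itself was not tested.

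In glycogen metabolism, 6 of 22 listed genes were measured and none passed. Of the 6, which include Gys2, 5 were below 0. The median of the 6 was -0.15 and rests in part on Gys2 itself. The lowest was Gckr, the regulatory protein that holds glucokinase in the nucleus, at -0.24 ± 0.079 (SE; limma adjusted p = 0.119), in block 4, and -0.081 ± 0.036 with the block correction (adjusted p = 0.257). The highest was Slc2a2, the glucose transporter of hepatocytes, at 0.0024 ± 0.075, and 61.0% of all probes lay below it. With the block correction the median of the list was -0.074, and of its 8 probes 1 passed as lower, probe 1665 of Ppp1ca, a catalytic subunit of protein phosphatase 1 (-0.17, limma adjusted p = 0.0192). Of all probes, 7.02% passed there in either direction.

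Among transcripts known to be repressed by insulin, 3 of 8 were measured and none passed. Beside Pck1 these were Igfbp1, a secreted carrier of insulin-like growth factors that responds quickly to insulin, at -0.0031 ± 0.072, and Cpt1a, which admits fatty acids to mitochondria, at -0.10 ± 0.076 (SE; limma adjusted p = 0.995 and 0.664). Cpt1a probe 677, named after its value was seen, passed with the block correction (-0.19 ± 0.043, adjusted p = 0.0266), while its other probe did not. Among transcripts known to be induced by insulin, 4 of 11 were measured and 1 fell: Fasn, the fatty acid synthase, by 0.35 ± 0.085 at its probe (SE, n = 4; limma adjusted p = 0.00361). Its deposited values were below 0 on 4 of 4 arrays, at -0.30, -0.27, -0.44 and -0.38, as were those of 5.94% of all probes. Its centred values, 0.57, -1.02, 0.29 and -1.25, were above 0 on 2 of 4 arrays and parted by dye. The call ended without array 1 (-0.42 ± 0.144, adjusted p = 0.162) and without array 3 (-0.28 ± 0.144, adjusted p = 0.999). It held with the block correction (-0.29, adjusted p = 0.000480) and with each block centred on its own median (-0.39, adjusted p = 0.00354). Pklr, the liver pyruvate kinase, also named after its value was seen, had -0.25 ± 0.075 (adjusted p = 0.0778) and -0.16 ± 0.031 with the block correction (adjusted p = 0.0322), so that 2 of the 4 passed as lower there, against 5.32% of all genes called in either direction.

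Receptors of other hormones that act on liver gave the other change. Of 13 listed, 6 were measured, and 1 rose: Avpr1a, the vasopressin receptor that drives glycogen breakdown through calcium. Its deposited log ratios were 0.17, 0.42, 0.38 and 0.21, above 0 on 4 of 4 arrays whatever the dye, as in 0.981% of all probes. Its centred values, 1.05, -0.33, 1.11 and -0.66, were above 0 on 2 of 4 arrays and parted by dye. Its estimate at probe 1627 was 0.29 ± 0.084 (SE, n = 4; limma adjusted p = 0.0220), and 0.32 ± 0.038 with the block correction (adjusted p = 0.000480). The call ended without array 1 (0.31 ± 0.144, adjusted p = 0.547), array 2 (0.21 ± 0.086, adjusted p = 0.246) and array 3 (0.28 ± 0.144, adjusted p = 0.999). It also ended with equal scaling of the arrays (0.29, adjusted p = 0.0600). Block 3 probes of Egfr, the epidermal growth factor receptor, and Nr3c1, the glucocorticoid receptor, fell by 0.31 ± 0.092 and 0.35 ± 0.089 (adjusted p = 0.0265 and 0.00705). With the block correction these probes had -0.0039 and -0.089 (adjusted p = 0.966 and 0.350), and no other probe of either gene passed. Without array 2 they had -0.064 and -0.15 (adjusted p = 0.951 and 0.582).

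**Figure D4:**
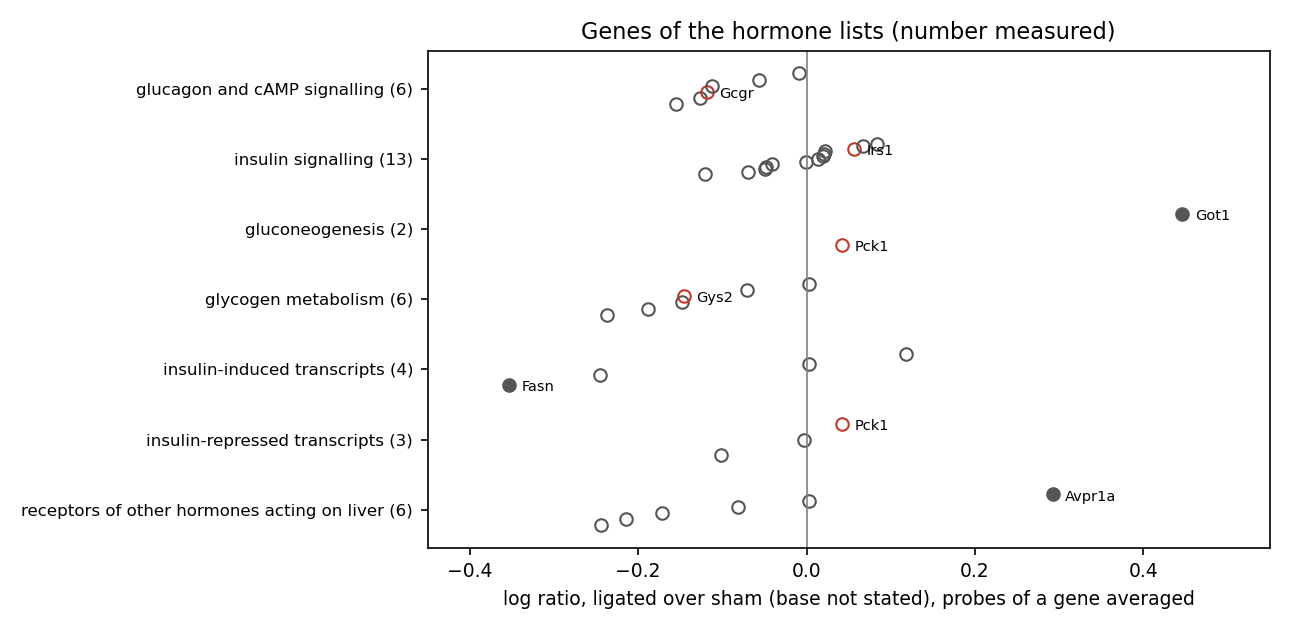
Operation estimate (horizontal axis, log ratio of ligated over sham, base not stated, probes of a gene averaged) of every measured gene in the 7 hormone lists (rows, with the number measured); filled points passed a limma adjusted p of 0.05, open points did not, and the 4 genes described here are red. Got1 and Avpr1a are filled on the right and Fasn on the left, and Pck1, Gcgr, Gys2 and Irs1 are open.

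Markers of the liver's cell types were measured in small number. The 4 hepatocyte markers had estimates from -0.24 to -0.079, the 1 cholangiocyte marker 0.077, the 2 endothelial markers -0.18 and -0.12, the 2 stellate and fibroblast markers 0.0032 and 0.22, the 2 blood markers -0.080 and 0.085, and none of the macrophage list was measured. No marker gene passed with probes averaged, and of single probes 1 of Col1a1 (stellate and fibroblast) passed as higher and 1 of Pf4 (blood) as lower. With the block correction, Col1a1 rose (0.23, limma adjusted p = 0.0120) and the hepatocyte marker Ttr fell (-0.17, adjusted p = 0.0497) with probes averaged, Aqp1 probe 797, of the cholangiocyte list, passed as higher (0.19, adjusted p = 0.0161), and the Pf4 probe, in block 3, had -0.045 (adjusted p = 0.535). The hepatocyte and endothelial markers thus lay on the same side of 0 as Gcgr and Gys2, as did at least 56.1% of all probes. Among hepatocyte markers, Apoa1, Tf, Ttr and Serpina1 probe 1865 stood in dye contrast bins 9 and 10. The median estimates of these bins were -0.058 and -0.087. Serpina1 probe 1874 stood in bin 1, with a median of -0.023. The part of cell types in the values of Gcgr and Gys2 was not tested.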

How the data were processed

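Per the labels' protocols, poly(A) RNA of pooled rat livers was labelled with Cy3 or Cy5 during reverse transcription and hybridised to 4 two-colour cDNA arrays, with the dyes exchanged on 2. The deposited values are 1 log ratio per probe and array, 1936 probes with 0 missing. The scanner, the background correction, the normalization and the base of the log were not found in the labels or the table (not given in the sources used here). Spot intensities were not used here, so no filter on dim probes was possible, and precision is limited by the number of arrays.

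Gene symbols came from the platform annotation (1432 probes with a single symbol, 19 with several, 485 with none) and were brought up to date with a RefSeq table of GRCr8, matched on gene ID (1429 matched). Arrays were centred on their medians and fitted in limma 3.58.1 (lmFit, eBayes; R 4.3.3), the operation being the intercept and the dye a +1 or -1 covariate, with Benjamini-Hochberg adjustment over all probes or over all 958 genes with probes averaged. The procedure was tested on simulated data. Intervals are 95% intervals of that fit.

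The dye curve, which gives the block correction, is a robust loess of each array's centred values, turned to one dye orientation, on the probe's mean over the arrays, with a span of 0.4 per array or 0.75 per block. Other settings were no centring, equal scaling, quantile normalization, centring per block, no dye term, the Cy5 over Cy3 reading, a robust prior, no moderation, and leaving out each array. The 4 genes, the lists, the block size and these settings were chosen with earlier results of these data known, and the motifs with the sequences in view. Named were every probe of the 4 genes, of each list the genes with a call in the fit on genes or on probes and otherwise its highest and lowest gene, the 3 genes nearest in distance, and Nr0b2 for scale.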

Additional observations from a re-analysis of the deposited data

How the results depend on the processing

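None of the 5 probes passed under any setting other than the Cy5 over Cy3 reading, and signs turned under few. In that reading Gcgr had 0.646, Gys2 0.573 and 0.584 at its probes and 0.578 averaged, all turned from below 0 to above, and Irs1 passed at 0.283. Centring per block turned Irs1 to -0.028. Leaving out single arrays gave a range from -0.034 to 0.117 for Pck1 and from -0.0077 to 0.121 for Irs1, in both cases turned without array 2. The range was -0.167 to -0.071 for Gcgr, -0.226 (without array 1) to -0.064 (without array 3) for Gys2 probe 534 and -0.160 to -0.136 for Gys2 probe 1916, and quantile normalization gave -0.046 for Gcgr. The number of probes passing was 111 and fell to 3 without centring, 62 with equal scaling, 12 with quantile normalization, 7 after the dye curve per array and 67 with a robust prior. It was 0 without the dye term and 0 without moderation, and 1599 in the Cy5 over Cy3 reading. Without array 1, 2, 3 or 4 it was 24, 48, 12 or 241. Of the 39 list genes 3 passed, against 0 without centring, with quantile normalization, after the dye curve per array, without the dye term and without moderation, 5 with a robust prior and 29 in the Cy5 over Cy3 reading. Without array 1, 2, 3 or 4 that count was 1, 3, 1 or 9. With equal scaling it was 2. The probe calls of Avpr1a, Fasn, Got1 and Prkcz all ended without centring (limma adjusted p = 0.300, 0.160, 0.300 and 0.487), with quantile normalization (0.119, 0.232, 0.133 and 0.382), after the dye curve per array (0.217, 0.217, 0.425 and 0.518), without the dye term and without moderation. The split of higher and lower calls over all probes was 18 and 93, but 71 and 65 with the block correction, 9 and 3 with quantile normalization, 7 and 0 after the dye curve per array and 3 and 0 without centring. The cause of these shifts was not tested. Each log ratio already sets ligated against sham RNA on the same array, and the 4 arrays form a single group. Fits without an array have 1 residual degree of freedom. For the probes named here the SE was 0.144 without array 1 or 3 and 0.086 without array 2 or 4. With all 4 arrays the median SE was 0.084. A call can thus end without array 1 or 3 although its estimate hardly moves, as for Avpr1a.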
